A study of Mus musculus with 8 samples.

Results

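Pregnancy-specific glycoprotein (Psg) and CEACAM genes were described in mouse embryos of E6.75 (embryonic day), each measured whole and singly. The members were all genes of the expression table whose symbol is Psg or Ceacam followed by a number: 27 of 21182 genes, 13 Psg and 14 Ceacam. The symbols decide membership, but the family itself was chosen by the RPKM of Psg23 in the 8 embryos, known to be low in the triple-knockout group. Differences between the groups are therefore given as a description, and no finding is rested on their p-values. The groups are 4 Control embryos and 4 embryos with the genotype label Tet1/2/3 TKO (triple knockout of the methylcytosine dioxygenases). The Control embryos carry the tag WT (wild type) in their sample descriptions. All 8 embryos are on a C57BL/6 background. The labels give no alleles, Cre driver, litter or sex for either group. Values are RPKM, that is, reads scaled to 1 kilobase of gene length and to 1000000 reads of the library. This puts genes on 1 scale, but the gene lengths used are not given. Between close copies, shared sequence limits a comparison of levels. Each embryo is 1 library and serves as 1 replicate. In whole embryos, fewer cells of a type and less RNA per cell cannot be told apart.

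PSG proteins are secreted, heavily glycosylated members of the immunoglobulin superfamily that the trophoblast releases towards the mother in rodents and primates. They bind cell-surface partners such as integrins, the tetraspanin CD9 and heparan sulfate chains, and some release active TGF-beta from its latent complex. CEACAM proteins are their relatives, and include membrane-anchored adhesion receptors such as CEACAM1 as well as secreted forms. At this stage the trophoblast consists of the extraembryonic ectoderm, the ectoplacental cone and the first giant cells, which lie next to the maternal decidua.

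All 27 members lie on chromosome 7 in the GENCODE M21 annotation, and the family contains close copies. In RefSeq, 22 of the 27 had a promoter sequence, and Psg16, Psg19, Psg22, Ceacam14 and Ceacam16 had none. The closest other family promoter was sought for the 5 members with the highest mean levels, over the 250 bases before the annotated start. It was a near copy for Psg23, Psg28 and Ceacam10, and these 3 pairs are shown as a description of the family. These bases lie before the annotated start, so their identity does not tell how far reads of the members can be told apart. Each sequence is written 5′ to 3′ on the strand of its gene, from build GRCm38.p6. Capitals mark bases that differ from, or have no partner in, the other sequence of the pair. The regions are chr7:18616502-18616751 (minus strand) for Psg23, chr7:18656726-18656975 (minus) for Psg21, chr7:18432056-18432305 (minus) for Psg28, chr7:18355008-18355257 (minus) for Psg18, chr7:24776917-24777166 (plus) for Ceacam10 and chr7:25477626-25477875 (minus) for Ceacam1. For Psg18 and Ceacam10, which have more than 1 entry, the first was used.
Psg23: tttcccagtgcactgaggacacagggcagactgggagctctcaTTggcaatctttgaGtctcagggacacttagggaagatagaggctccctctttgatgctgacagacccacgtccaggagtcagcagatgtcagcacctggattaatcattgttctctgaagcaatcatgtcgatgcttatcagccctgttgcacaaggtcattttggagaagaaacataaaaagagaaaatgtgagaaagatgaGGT
Psg21: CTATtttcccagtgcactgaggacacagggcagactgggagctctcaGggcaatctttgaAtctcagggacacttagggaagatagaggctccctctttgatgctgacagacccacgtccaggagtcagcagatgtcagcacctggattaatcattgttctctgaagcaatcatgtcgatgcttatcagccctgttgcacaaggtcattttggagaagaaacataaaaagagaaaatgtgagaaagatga
Psg28: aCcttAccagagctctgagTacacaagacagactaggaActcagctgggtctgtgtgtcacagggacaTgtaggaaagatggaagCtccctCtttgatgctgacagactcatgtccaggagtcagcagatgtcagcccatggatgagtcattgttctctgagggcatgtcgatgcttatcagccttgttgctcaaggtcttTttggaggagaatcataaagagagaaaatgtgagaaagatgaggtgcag
Psg18: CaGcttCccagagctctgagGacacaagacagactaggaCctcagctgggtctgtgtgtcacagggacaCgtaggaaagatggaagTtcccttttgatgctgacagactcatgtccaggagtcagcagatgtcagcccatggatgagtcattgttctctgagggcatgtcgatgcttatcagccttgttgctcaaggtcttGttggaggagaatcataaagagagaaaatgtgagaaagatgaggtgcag
Ceacam10: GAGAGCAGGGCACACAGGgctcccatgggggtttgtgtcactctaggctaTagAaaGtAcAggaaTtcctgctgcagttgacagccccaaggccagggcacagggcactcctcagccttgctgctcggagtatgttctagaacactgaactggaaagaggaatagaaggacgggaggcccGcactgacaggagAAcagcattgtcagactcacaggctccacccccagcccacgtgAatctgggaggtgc
Ceacam1: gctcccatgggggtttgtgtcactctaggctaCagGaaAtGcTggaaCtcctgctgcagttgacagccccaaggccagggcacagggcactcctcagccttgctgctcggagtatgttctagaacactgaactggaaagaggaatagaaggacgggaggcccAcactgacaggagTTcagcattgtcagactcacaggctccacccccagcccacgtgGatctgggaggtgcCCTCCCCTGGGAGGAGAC

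The Psg23 and Psg21 sequences matched at 244 of 246 aligned bases (99.2%), and the capitals at their ends are overhangs from start sites annotated a few bases apart. Psg28 and Psg18 matched at 242 of 249 aligned bases (97.2%), and Ceacam10 and Ceacam1 at 222 of 232 (95.7%). Psg23 averaged 3.90 RPKM over the 8 embryos and Psg21 0.0313 RPKM. Psg28 averaged 0.870 RPKM and Psg18 0.0286 RPKM, and Ceacam10 1.93 RPKM and Ceacam1 0.285 RPKM. The ranges over embryos did not overlap for the 2 Psg pairs, but Ceacam10 (0.134 to 4.58 RPKM) overlapped Ceacam1 (0.182 to 0.450 RPKM). For Psg29 the closest promoter was that of Ceacam5 (189 of 236 aligned bases, 80.1%), and for Ceacam15 that of Ceacam9 (133 of 168, 79.2%). The pairs were picked for their sequence after levels were known, so these values are a description of them alone.

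Short motifs were searched on both strands of these 250 bases, in the 10 Psg and 12 Ceacam genes with a promoter entry. GATAAG, the core recognised by GATA factors and seen in the printed Psg sequences as cttatc, was present in 9 of the 10 Psg promoters (not in that of Psg20) and in 2 of the 12 Ceacam promoters (Ceacam5 and Ceacam18). It was present in 6.60% of 27025 mouse promoters of the same length. The 4 motifs were chosen after the sequences had been seen, and the Psg promoters are copies of each other, so the 9 are not independent. TATAAA was in 0 of 10 Psg and 4 of 12 Ceacam promoters (13.0% of all). GCCNNNGGC, the core of AP-2 sites, was in 0 of 10 and 3 of 12 (13.6% of all). CG, the dinucleotide on which TET enzymes act when it is methylated, occurred 0 to 3 times in a Psg promoter and 0 to 4 times in a Ceacam promoter, against a median of 6 over all promoters. A match is a run of letters, and binding was not measured.

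The series as a whole bears on these values in 3 ways. Depth, estimated from the smallest RPKM values, was 9900000 to 18960000 reads per embryo, lowest in TKO replicate 1. Between 2186 and 4942 genes were listed at 0 in an embryo. Tet1 was at 4.93 to 5.76 RPKM over the Control and 9.21 to 15.3 RPKM over the TKO-labelled embryos, Tet2 at 0.444 to 0.850 and 0.598 to 0.993 RPKM, and Tet3 at 1.73 to 2.08 and 1.14 to 1.68 RPKM. The Tet1 level does not match a loss of that transcript, so the second group is called TKO-labelled and each direction rests on that label. A value over the whole gene does not check a deletion of exons.

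Few members carried substantial signal. Of the 27 members, 3 passed the filter on low values (at least 1 RPKM in at least 4 of the 8 embryos): Psg23, Ceacam10 and Ceacam15. Psg28 and Psg29 missed it with a mean of at least 0.5 RPKM in a group, and the other 22 stayed below that mean. An embryo had 1 to 5 members at 1 RPKM or more, and 6 members were above 0 in all 8 embryos. Psg23 alone made up 52.5% to 74.8% of the summed Psg RPKM of each Control embryo and 35.3% to 61.4% among the TKO-labelled ones.

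**Figure D1:**
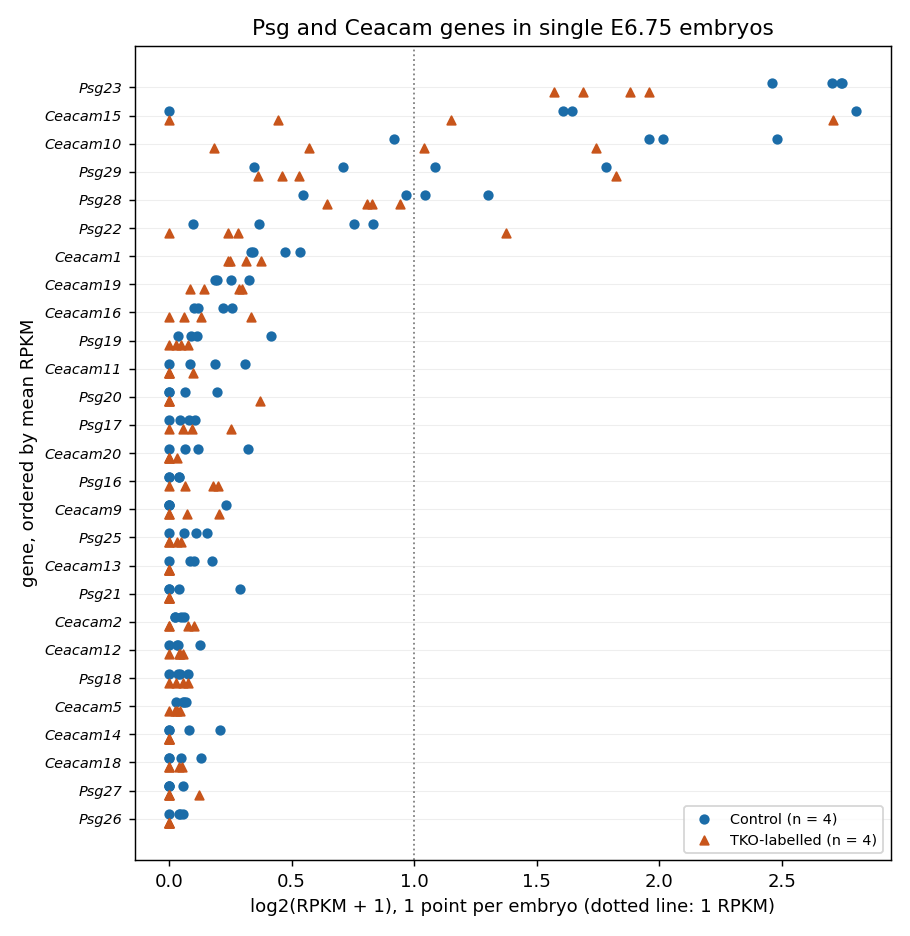
Levels of the 27 members on the log2(RPKM + 1) axis, 1 point per embryo (circles Control, triangles TKO-labelled, n = 4 each), with genes ordered by mean RPKM and a dotted line at 1 RPKM. Psg23 is the member whose 4 Control values, at 4.51 to 5.71 RPKM, all lie above its 4 TKO-labelled values, at 1.97 to 2.89 RPKM.

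Psg23, a secreted pregnancy-specific glycoprotein, was the most abundant member and the most even among embryos of a group. Its level was 5.53, 4.51, 5.70 and 5.71 RPKM in Control replicates 1 to 4, and 2.68, 1.97, 2.89 and 2.23 RPKM in TKO-labelled replicates 1 to 4. Every Control embryo lay above every TKO-labelled embryo. The means were 5.36 ± 0.57 and 2.44 ± 0.42 RPKM (SD, n = 4 each), 2.20 times higher in Control. The highest embryo of a group exceeded the lowest by 1.27 times in Control and by 1.46 times among TKO-labelled embryos. By the read estimate these values rest on about 147 to 198 reads for Control and 57 to 119 reads for TKO-labelled embryos.

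In the fit over all 10451 genes past the filter, the log2 difference of Psg23 was -0.89 (SE 0.13, 95% confidence interval -1.18 to -0.60). By limma with Benjamini-Hochberg adjustment over those genes its adjusted p was 0.0813 (3.40e-05 unadjusted), above the threshold of 0.05. With TKO replicate 1 left out the adjusted p was 0.0325. Thus 0 members passed in either direction by limma in the fit of 8 embryos, where 0.00957% of all tested genes passed as higher and 0% as lower. At an unadjusted p under 0.05 stood 2 members, both lower, Psg23 and Ceacam10, as did 3.6% of all tested genes in that direction and 13.9% in the other. Psg23 was the 1 member whose groups did not overlap, against 1.86% of tested genes without overlap and lower in TKO-labelled embryos, and 7.55% higher. These shares stand for 194 and 789 genes, which became 441 and 400 of 10444 after median-ratio scaling. Because the family was chosen knowing this contrast, nothing is read from these shares. At that unadjusted p, 376 genes were lower and 1448 higher, but 751 and 773 after median-ratio scaling, under which the Psg23 difference was -0.97.

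**Figure D2:**
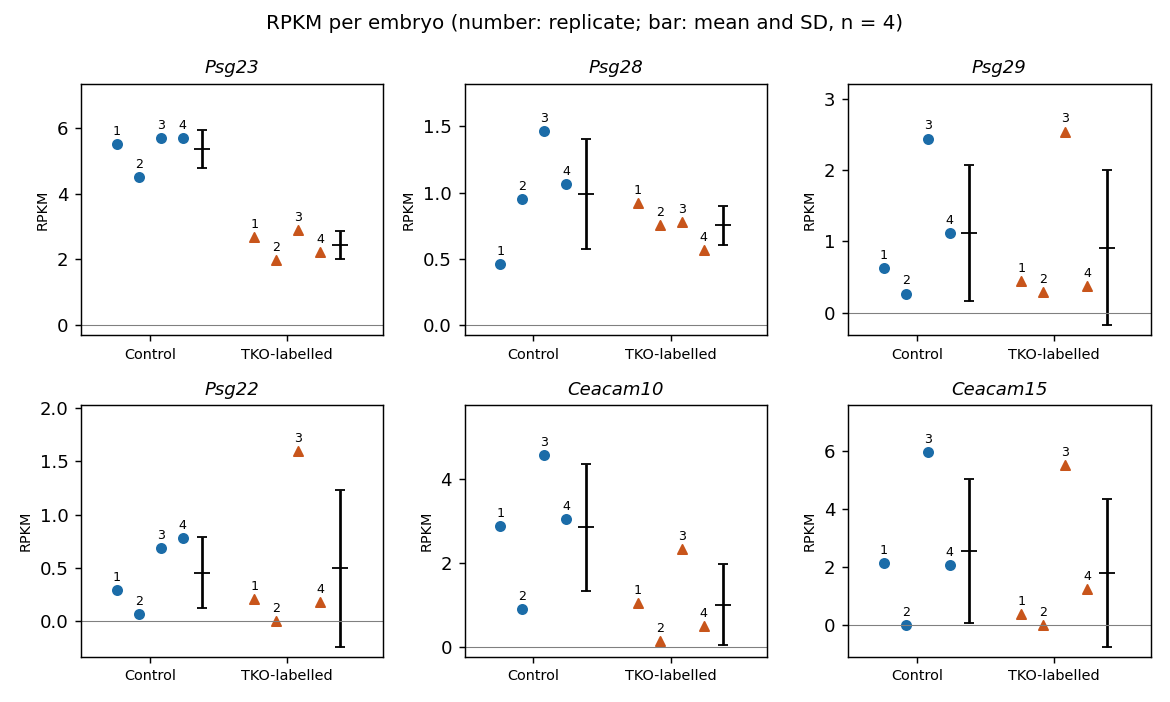
RPKM of the 6 most abundant members in each embryo, with the replicate number beside each point and the mean and SD (n = 4) as bars. Psg23 shows 2 separate groups, whereas in Psg29, Psg22 and Ceacam15 replicate 3 of the TKO-labelled embryos stands among the highest values and the groups overlap.

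Psg28, another secreted PSG, was low but present in every embryo. It was at 0.462, 0.953, 1.47 and 1.06 RPKM in Control replicates 1 to 4 and at 0.924, 0.753, 0.774 and 0.563 RPKM in TKO-labelled replicates 1 to 4. The lowest value of all was Control replicate 1, and the groups overlapped. Its means were 0.987 ± 0.414 and 0.754 ± 0.148 RPKM (SD, n = 4 each), resting on about 13 to 35 reads per embryo. Without the filter its log2 difference by limma was -0.16 (adjusted p = 0.717).

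Psg29 and Psg22 followed another order of embryos. Psg29 was at 0.634, 0.270, 2.44 and 1.12 RPKM in Control replicates 1 to 4 and at 0.444, 0.285, 2.54 and 0.375 RPKM in TKO-labelled replicates 1 to 4. Replicate 3 was the highest of each group, and the other TKO-labelled embryos lay in the lower part of the Control range. The means were 1.12 ± 0.95 and 0.911 ± 1.088 RPKM (SD, n = 4 each). Psg22, known as a PSG of giant cells in early mouse pregnancy, was singled out after its values were seen, since its means of 0.457 and 0.498 RPKM fell below the limit for naming. It was at 0.291, 0.0710, 0.685 and 0.780 RPKM in Control replicates 1 to 4 and at 0.215, 0, 1.60 and 0.182 RPKM in TKO-labelled replicates 1 to 4. Again TKO-labelled replicate 3 was the highest of the 8 embryos, and the listed 0 was in TKO-labelled replicate 2. Without the filter the log2 differences by limma were -0.19 for Psg29 (adjusted p = 0.851) and -0.04 for Psg22.

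The other Psg genes were at the edge of detection. Psg16, Psg17, Psg18, Psg19, Psg20, Psg21, Psg25, Psg26 and Psg27 reached at most 0.333 RPKM, in Psg19, and each was listed at 0 in at least 1 embryo. Psg17 encodes the PSG known to bind CD9, and a transcript of Psg16 is known from brain. Psg21 and Psg26 were listed at 0 in all 4 TKO-labelled embryos and in 2 and 1 Control embryos, with at most 0.222 and 0.0390 RPKM elsewhere. Most of these values stand for a few reads, with about 18 at most (Psg19 in Control replicate 1), and the groups overlapped in each of the 9 genes. The pseudogene Psg-ps1, which the symbol rule leaves out, reached 0.157 RPKM.

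Ceacam10, which encodes a secreted CEACAM known from seminal vesicle, spanned the widest range among members above 0 in every embryo. It was at 2.88, 0.892, 4.58 and 3.05 RPKM in Control replicates 1 to 4 and at 1.06, 0.134, 2.35 and 0.487 RPKM in TKO-labelled replicates 1 to 4. Control replicate 2 lay among the low TKO-labelled embryos. TKO-labelled replicate 3 lay above Control replicate 2 and below Control replicates 1, 3 and 4. The means were 2.85 ± 1.51 and 1.01 ± 0.97 RPKM (SD, n = 4 each). The log2 difference was -0.96 (SE 0.37, limma adjusted p = 0.231), with a 95% confidence interval of -1.78 to -0.14. Leaving out Control replicate 2, its groups did not overlap, with a difference of -1.27 (limma adjusted p = 0.232).

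Ceacam15 was the most variable of the abundant members. It was at 2.13, 0, 5.99 and 2.05 RPKM in Control replicates 1 to 4 and at 0.362, 0, 5.54 and 1.22 RPKM in TKO-labelled replicates 1 to 4. Replicate 3 was highest and replicate 2 was listed at 0 in both groups. The log2 difference was -0.44 (SE 0.63, 95% confidence interval -1.84 to 0.96; limma adjusted p = 0.745). It varied with the embryos and settings used, at -0.01 without Control replicate 3, -0.08 without TKO replicate 2, -0.23 without TKO replicate 1, -0.77 at a pseudocount of 0.1, -0.94 without Control replicate 2 and -0.98 without TKO replicate 3.

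The remaining CEACAM genes were low. Ceacam1, the adhesion receptor with inhibitory tyrosine motifs, was at 0.261 to 0.450 RPKM among Control and 0.182 to 0.296 RPKM in TKO-labelled embryos, overlapping ranges that rest on 14 to 37 reads. Ceacam19 was at 0.0600 to 0.252 RPKM over the 8 embryos. Ceacam16, known from the tectorial membrane of the inner ear, reached 0.260 RPKM, and Ceacam20, known from epithelial microvilli, 0.249 RPKM. Ceacam2, Ceacam5, Ceacam9, Ceacam11, Ceacam12, Ceacam13, Ceacam14 and Ceacam18 reached at most 0.238 RPKM, in Ceacam11. Ceacam13 and Ceacam14 were listed at 0 in all 4 TKO-labelled embryos and in 1 and 2 Control embryos. The pseudogene Ceacam-ps1 was above 0 in Control replicate 2 alone, at 0.0930 RPKM.

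Summed over its 13 genes, the Psg family was at 7.39, 6.04, 10.8 and 9.07 RPKM in Control replicates 1 to 4 and at 4.66, 3.21, 8.18 and 3.66 RPKM in TKO-labelled replicates 1 to 4. TKO-labelled replicate 3 lay within the Control range and the other 3 below it. Without Psg23 the sum was 1.53 to 5.15 RPKM across Control and 1.24 to 5.29 RPKM across TKO-labelled embryos, nearly the same range. The summed Ceacam level was 1.71 to 12.5 RPKM and 0.774 to 8.67 RPKM. The ratio of the group means on the log2 scale was -0.76 for the Psg sum. With an embryo left out it ranged from -0.60 (without TKO replicate 2) to -1.12 (without TKO replicate 3). That of the Ceacam sum was -0.93, but -0.41 without Control replicate 3, -0.60 without TKO replicate 2 and -1.96 without TKO replicate 3. Of the 27 members 19 had a lower mean in TKO-labelled embryos (70.4%), as did 63.2% of all genes with a mean under 1 RPKM and 48.1% of all genes above 0. Without the filter the median log2 difference of the 27 was -0.04, against 0.00 over 20714 genes. That of the 3 members past the filter, -0.89, is the value of Psg23 itself and says nothing more of the family.

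Ceacam10, Ceacam15, Psg29 and Psg22 were highest in the same 4 embryos, which were also those with most transcript from tissue around the embryo. These were TKO-labelled replicate 3 and Control replicates 1, 3 and 4. They were highest too for Prl8a2, the decidual prolactin of the mother, and for S100a8, a neutrophil protein. Prl8a2 ranged from 1.32 to 336 RPKM among Control and from 11.8 to 354 RPKM among TKO-labelled embryos, and was lowest in Control replicate 2. S100a8 ranged from 0 to 26.8 and from 0.180 to 18.7 RPKM. Prl3d1, a placental lactogen of giant cells named after its values were seen, was at 108 RPKM in TKO-labelled replicate 3 and at 0.384 to 13.5 RPKM elsewhere. Its second highest embryo was TKO-labelled replicate 4, so it did not keep to the same 4 embryos. Nor did the placental gene Phlda2, at 545 RPKM in TKO-labelled replicate 3, 392 RPKM in Control replicate 1 and 375 RPKM in TKO-labelled replicate 4. The part of maternal tissue and of giant cells in these 4 members was not tested. Across the groups Psg23 had another order: all 4 Control embryos, replicate 2 included, stood above TKO-labelled replicate 3. Within the groups it shared part of this order. Replicate 2 was its lowest embryo in each group, and replicate 3 its highest TKO-labelled embryo. The part of surrounding tissue in Psg23 was not tested.

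**Figure D3:**
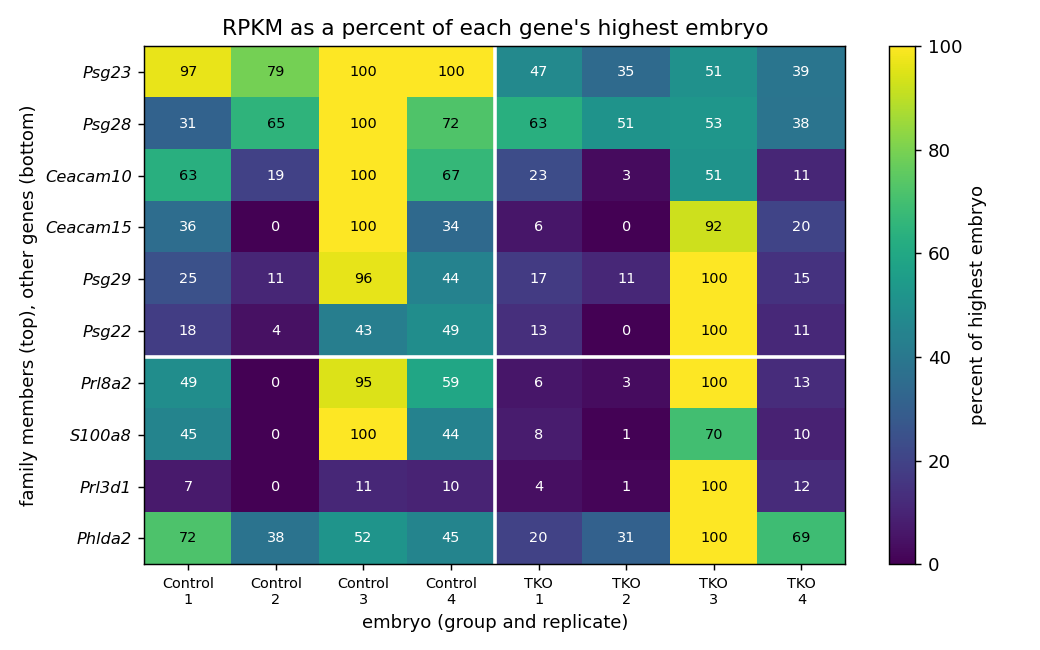
RPKM of 6 members (above the white line) and of 4 other genes (below it) as a percent of each gene's highest embryo, in Control and TKO-labelled replicates 1 to 4. Ceacam15, Psg29 and Prl8a2 are at 92% or more in replicate 3 of both groups. Psg22 is at 100% in TKO-labelled replicate 3 but at 42.9% in Control replicate 3, below Control replicate 4. All of these are at most 11.2% in replicate 2 of both groups. Psg23 is at 79.0% or more in Control and at most 50.5% in TKO-labelled embryos.

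Marker lists of the tissues in these samples gave the setting of these values, beside 33.5% negative differences and a median of 0.09 over all tested genes. In the list for ectoplacental cone, spongiotrophoblast and giant cells, 12 of 25 genes passed the filter, with 7 negative and 5 positive differences and a median of -0.18. Its summed level was 410.0 to 730.3 RPKM for Control and 307 to 1085 RPKM for TKO-labelled embryos. Its marker Tpbpb was listed at 0 in all 8 embryos, and 9 of its genes stayed below 1 RPKM in every embryo. Its most abundant genes, Phlda2, an imprinted regulator of placental growth, and Slc2a3, a glucose transporter, had log2 differences of -0.14 and 0.05. The extraembryonic ectoderm list had 9 of 13 negative differences (median -0.14), summed levels of 133 to 203 and 125 to 182 RPKM, and log2 differences of 0.03 for Eomes and -0.41 for Elf5 (limma adjusted p = 0.951 and 0.264). The sums of both trophoblast lists overlapped between the groups, but that of the cone list rests largely on Phlda2 and Slc2a3. In Control replicate 1 these were at 392 and 209 RPKM of a sum of 730.3 RPKM. The sums therefore do not show that the amount of trophoblast was alike. Its part in the Psg23 difference was not tested.

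The lists of maternal tissue reached both groups. For decidua and maternal stroma, 5 of 10 genes passed the filter, 4 with negative differences (median -0.57), and the sum was 6.19 to 490.5 RPKM for Control and 23.1 to 419.8 RPKM for TKO-labelled embryos. Its leading genes Prl8a2 and Cryab, a small heat shock protein, had log2 differences of -0.65 and -0.57. For neutrophils and blood 2 of 8 measured genes passed the filter, both negative (S100a8 -1.05, S100a9 -0.50), with sums of 0.489 to 30.6 and 0.247 to 22.9 RPKM. In the parietal endoderm list all 9 tested genes had positive differences (median 1.44), led in level by Sparc (1.18) and Col4a1 (1.44). The sum of that list was 115 to 233 RPKM among Control and 188 to 644 RPKM among TKO-labelled embryos. The epiblast list (9 of 10 positive, median 0.40) was led by Dnmt3b (0.02) and Utf1 (0.63), and that of visceral endoderm (7 of 10 positive, median 0.33) by Apoa1 (0.62) and Ttr (0.38). By limma 0 genes of these 7 lists passed the threshold, with 0, 2, 0, 0, 0, 0 and 0 at an unadjusted p under 0.05 and lower, in the order cone, ectoderm, decidua, neutrophils, parietal endoderm, epiblast and visceral endoderm. In the same order 0, 0, 0, 0, 8, 3 and 1 were higher at that p. Over all tested genes 3.6% were lower and 13.9% higher at it, so that 1 of 10 in visceral endoderm is near the background, as are its 7 positive differences of 10.

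Known partners of PSG and CEACAM proteins summed to 406 to 481 RPKM among Control and 432 to 503 RPKM among TKO-labelled embryos. Of 26 such genes 16 passed the filter, 11 with positive and 5 with negative differences (median 0.07), a split near that of all tested genes, 33.5% of which were negative. Of the 16, 0 passed the threshold by limma, with 1 higher and 0 lower at an unadjusted p under 0.05. Cd9, the tetraspanin that Psg17 binds, had means of 79.2 ± 16.5 RPKM (Control) and 102 ± 20.0 RPKM (TKO-labelled; SD, n = 4 each), with overlapping groups (log2 difference 0.37, limma adjusted p = 0.291). Ctnnb1, the beta-catenin that binds the tail of CEACAM1, had means of 192 ± 18.8 and 188 ± 16.9 RPKM (log2 difference -0.02, limma adjusted p = 0.928). Another 5 partner genes stayed below 1 RPKM in every embryo.

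Shared sequence limits how far close members can be told apart. Of the 50-base windows in the GENCODE M21 transcripts of Psg23, 32.9% also occur in another family gene, 28.8% in Psg21. The share was 30.7% for Psg28, with Psg26 the closest at 24.4%, and 17.6% for Psg22. For Ceacam1 it was 30.4%, with Ceacam2 the closest at 29.6%. It was 0.130% for Psg29, 3.00% for Ceacam10 and 0% for Ceacam15, which are thus largely distinct within the family at this length. Windows were compared with Psg and Ceacam transcripts only, not with the rest of the genome. No source used here gives the read length or the treatment of reads that fit several genes. Levels of Psg23, Psg28, Psg22 and Ceacam1 are therefore uncertain, and these shares do not give the size of that uncertainty. Psg21, the closest copy of Psg23, was listed at 0 in all 4 TKO-labelled embryos and at 0 to 0.222 RPKM in Control.

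**Figure D4:**
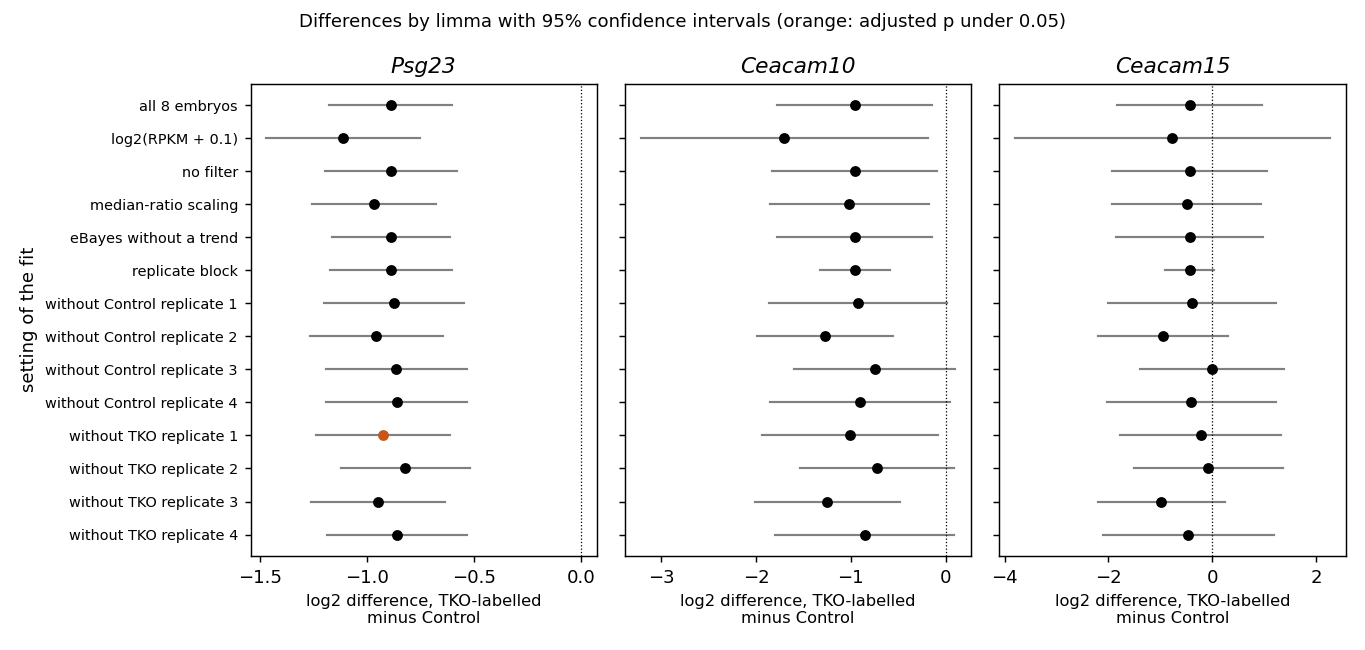
Log2 differences (TKO-labelled minus Control, points) with 95% confidence intervals by limma for the 3 members past the filter, under each setting of the fit. Psg23 stays between -1.11 and -0.82 and is past the adjusted threshold in 1 setting, without TKO replicate 1, while Ceacam15 ranges from -0.98 to -0.01.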

How the data were processed

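SMARTer cDNA from single lysed embryos was made into Nextera XT libraries for Illumina sequencing, per the labels' protocols. The deposited table holds RPKM computed by the authors, 1 value per gene symbol and embryo, a unit taken from the name of the table. Per the submitters' processing notes the tools and builds include HTSeq and mm9. Aligner, annotation, gene lengths, strand and handling of multi-mapped reads: not given in the sources used here. Columns were matched to embryos by the labels' descriptions, and groups were taken from the sample titles.

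Depth was estimated from genes with 1 GENCODE M21 transcript and values of 0.03 to 1 RPKM, as the read total at which most came out at 1 to 3 whole reads within 2%. At that total, 38 of 40 member values of up to 10 reads (95%, members with 1 transcript) came out whole within 0.1 read. Part of these values also entered the choice of the total, so this is not an independent check of it. No count test was run, since gene lengths come from another build. Read numbers are such estimates and cover counting error only.

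Groups were compared on log2(RPKM + 1) by limma 3.58.1 (R 4.3.3) with a variance trend, over genes with at least 1 RPKM in at least 4 of 8 embryos. P-values are two-sided and Benjamini-Hochberg adjusted over all tested genes. A difference is TKO-labelled minus Control on that scale, which understates low genes. No set test and no adjustment over the family was made. The fit was tested on simulated data. The p-values weigh each difference against the spread between embryos within the groups, with variances moderated over all tested genes. They treat the embryos as independent, and the labels give no litter. Alternatives were a pseudocount of 0.1, no filter, a mean of at least 5 RPKM, median-ratio scaling, no trend, the replicate number as a block, and each embryo left out.

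Members past the filter were named with full values, members with a group mean of at least 0.5 RPKM with their values, the others by range, and the 2 most abundant genes of each list. The members and lists were chosen with earlier results of these data known. Promoters are from RefSeq (GRCm38.p6) and were aligned with Biopython 1.88.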

Additional observations from a re-analysis of the deposited data

Results flagged for a closer look

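Within the groups of 4, a sample was marked where its gap to the nearest other divided by the range of the group passed the 95% limit of Dixon's test. Among 16 groups (6 members and both sums), 3 were marked, where chance alone marks about 5% of groups. Psg23 in Control replicate 2, at 4.51 RPKM, lay below the other Control embryos by 0.845 of their range, and above every TKO-labelled embryo. Psg29 in TKO replicate 3, at 2.54 RPKM, lay above the other TKO-labelled embryos by 0.930 of the range. Psg22 in TKO replicate 3, at 1.60 RPKM, did so by 0.865 of the range.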

How the results depend on the processing

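The number of members past the threshold was 0 in both directions under each alternative that tested members, except for 1 lower member (Psg23) without TKO replicate 1, so that it ranged from 0 to 1 with an embryo left out. Without that embryo 33 of all genes were higher and 7 lower past the threshold, against 1 and 0 with all 8 embryos. The number of members without overlap ranged from 1 to 2 with an embryo left out, Ceacam10 joining Psg23 without Control replicate 2. The median log2 difference of the tested members was -0.0429 with no filter, where all 27 members enter, against -0.89 for 3. The Psg23 difference ranged from -1.11 to -0.82 and its adjusted p from 0.0325 to 0.320. The Ceacam10 difference was -1.70 at a pseudocount of 0.1, against -0.96. The Ceacam10 and Ceacam15 differences stayed negative, with adjusted p-values of 0.106 to 0.494 and 0.300 to 0.996. No member had a mean of at least 5 RPKM, so that filter gave no value. With the replicate number as a block, 0 members passed, and the adjusted p was 0.0844 for Psg23 (log2 difference -0.89), 0.106 for Ceacam10 and 0.300 for Ceacam15. Embryos of the same number shared no stated origin, and their deviations from the group means correlated at -0.02 to 0.40 over 10451 genes, so the numbers were not taken as pairs. Of the 4 Control embryos, those numbered 2 and 3 correlated best with their own number. Members under about 10 reads allow no comparison at this depth.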
